A study of Homo sapiens with 372 samples.

Results

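The genes described here encode complex I of the mitochondrial respiratory chain and the proteins that help to build it. They were chosen by symbol alone, as every listed gene whose symbol starts with NDUF. The rule gave 45 of the 9664 genes listed. Of these, 38 carry subunit symbols (NDUFA, NDUFAB, NDUFB, NDUFC, NDUFS and NDUFV) and 7 are assembly factors (NDUFAF1 to NDUFAF7). All 45 passed the detection limit, as did 9655 of all genes. The limit asks for a value above 0 in more than 30% of the cells in 1 or more conditions. The authors had filtered genes by such a rule, so passing it does not set the members apart. An NDUF gene below it would not be listed.

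A2780, an established human ovarian cancer cell line, was profiled by full-length single-cell RNA-seq (Smart-seq2) after drug treatment. The 338 cells kept in the deposited table were 46 untreated control cells, 56 cells with 5 nM paclitaxel for 16 h, 53 with 5 nM paclitaxel for 48 h, 63 with 75 µM celecoxib for 2 h, 61 with 75 µM celecoxib for 16 h, and 59 with both drugs at those doses for 16 h (the combination). Paclitaxel is a microtubule-stabilizing drug and celecoxib an inhibitor of cyclooxygenase-2. Cells were captured on the Fluidigm C1 system. The number of captures is not stated, and cells of every condition carry the same code in the labels. The labels thus mark no replicates within a condition. Each condition was counted as 1 sample, and its cells are not replicates. No test between conditions was therefore made. Every treatment is set against the same control cells. The conditions were also spread unevenly over 4 blocks, made here by dividing the sequencing index numbers in the labels into groups of 96. Control cells were in block 4 alone, paclitaxel 16 h in 1, celecoxib 2 h in 2 and celecoxib 16 h in 3. Combination cells were in blocks 1 and 3, and paclitaxel 48 h cells in 2 and 4. Except for part of paclitaxel 48 h, a difference from control cannot be told apart from one between blocks. What a block stands for is not given in the sources used here, and blocks are given where they bear on a result.

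Complex I takes electrons from NADH, passes them to ubiquinone and pumps protons across the inner mitochondrial membrane. It has a matrix arm, which holds the flavin and the iron-sulfur clusters, and a membrane arm, which holds the proton pumps. The core subunits carry the catalysis, the accessory subunits surround and stabilize them, and assembly factors join the intermediates during construction but are absent from the finished enzyme. The core subunits of the membrane arm are encoded by mitochondrial DNA and carry no NDUF symbol. Of the 38 subunit symbols, 16 belong to the matrix arm (7 core and 9 accessory) and 20 to the membrane arm. NDUFAB1, the mitochondrial acyl carrier protein, lies in both arms. NDUFA4 was first placed in complex I and is now known as a subunit of complex IV, so it is kept as a member by symbol and counted apart where that matters. An 8th NDUFAF factor, NDUFAF8, is listed under its older symbol C17orf89 and is not a member by the rule.

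Of 13 cell type markers examined, 2 were among the listed genes. Vimentin (VIM) had a mean E-value of 3.70 in control cells and was detected in 62.5% of cells in the condition with the fewest. Keratin 18 (KRT18) stood at a mean E-value of 0.59 and its lowest detection was 23.9%. The epithelial and Muellerian markers KRT8, KRT19, EPCAM, CDH1, PAX8, WT1 and MUC16 were not among the listed genes, nor were CDH2, PTPRC, PECAM1 and COL1A1. The name of an ovarian cancer line comes from the study and was not tested by these markers.

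The members are scattered over 21 chromosomes, so their starts were searched for short motifs that they might share. RefSeq promoter windows (GRCh38.p14, 250 bases before and 50 after the start) were at hand for 38 of the 45 members. NDUFB5, NDUFB9, NDUFC2, NDUFAF6, NDUFS5 and NDUFA4 were among those with no window. The 9 bases AAGATGGCG, the core bound by YY1, a zinc finger factor found at many mitochondrial gene promoters, were in 6 of 38 members (15.8%) on either strand, beside 2.14% of 27305 genes with a window and 5.67% of the 7582 listed genes with one. Each of the 6 is printed over 30 bases of the coding strand with the motif in capitals, because all lie in the same place, after the start and on the coding strand.
NDUFS4, chr5:53560649-53560678 (+): ttgcctgcagcAAGATGGCGgcggtgtcaa
NDUFA9, chr12:4649113-4649142 (+): gattgtgggaaAAGATGGCGgctgccgcac
NDUFS7, chr19:1383913-1383942 (+): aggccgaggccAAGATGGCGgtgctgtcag
NDUFB8, chr10:100529836-100529865 (-): tgaagaaggtgAAGATGGCGgtggccaggg
NDUFA7, chr19:8321343-8321372 (-): atcgcggacggAAGATGGCGtccgccaccc
NDUFA6, chr22:42090729-42090758 (-): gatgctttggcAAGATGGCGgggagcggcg
The motif began at base 22 after the start in NDUFS4, 11 in NDUFA9, 18 in NDUFS7 and NDUFB8, 15 in NDUFA7 and 26 in NDUFA6. In all 6 the ATG inside the motif was the annotated translation start codon of the canonical transcript. A place after the start was common, since 332 of the 429 windows with the motif on the coding strand (77.4%) held it there.

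The 9 bases GCGCATGCG, the core bound by NRF1 (nuclear respiratory factor 1, a regulator of nuclear genes for the respiratory chain), were also in 6 of 38 members (15.8%), beside 2.34% of genes with a window and 4.97% of listed genes with one. These 6 are shown in the same way, because NDUFAF5 is the assembly factor among them and NDUFS7, a subunit with both motifs, is the protein that NDUFAF5 modifies. Where the capitals run over 10 bases, the motif lies on both strands and overlaps itself, and in NDUFS7 the capitals are the reverse complement, since the motif lies on the other strand.
NDUFB4, chr3:120596167-120596196 (+): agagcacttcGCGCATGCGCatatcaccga
NDUFS6, chr5:1801350-1801379 (+): ccagaagccgtGCGCATGCGttagcgctaa
NDUFA5, chr7:123557958-123557987 (-): gtatgcccatcGCGCATGCGtcaatttttc
NDUFA8, chr9:122159764-122159793 (-): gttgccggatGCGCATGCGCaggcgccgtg
NDUFS7, chr19:1383822-1383851 (+): gttccggtttcCGCATGCGCtccgagccgc
NDUFAF5, chr20:13785014-13785043 (+): agccgcgctgGCGCATGCGCacaaaaagcg
The sites lay 159 bases before the start in NDUFB4, 158 in NDUFA5, 74 in NDUFS7 and 46 in NDUFS6, and spanned the start in NDUFA8 and NDUFAF5. The ETS or GABP core CCGGAAGT was in 2 of 38 members (NDUFS1 and NDUFA13, 5.26%), beside 4.95% of genes with a window and 11.7% of listed genes with one. A TATA box (TATAAA) was in 3 of 38 (NDUFA2, NDUFA9 and NDUFA7, 7.89%), beside 14.0% and 7.54%. A match is a description of these letters and not a bound site.

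The deposited values are E-values, log2(N/10 + 1), where N is TPM, the length-scaled abundance from RNA-seq, scaled in each cell to a spike-in RNA. N can therefore be compared between genes. In control cells the subunit genes were far above the assembly factors. The median over the 38 subunit genes of the mean N was 803 normalized TPM, from 59.2 for NDUFV3 to 3776 for NDUFS5. The median over the 7 factors was 155, from 48.8 for NDUFAF7 to 623 for NDUFAF3. NDUFAF3 stood above 13 of the 38 subunit genes, NDUFAF4 above 7 and NDUFAF2 above 3, while NDUFAF1, NDUFAF5 and NDUFAF6 stood above 1 and NDUFAF7 above none. The canonical transcripts also differed in length, with a median of 693.5 bases for subunits and 1795 for factors, beside 3302 over all genes listed.

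The depth of reads per cell is unknown, and the number of genes detected per cell is the measure given here. Its median was between 6125.5 and 6630 in the 6 conditions. All 38 subunit genes were detected in over 90% of the cells of every condition, as were 41 of the 45 members. NDUFAF1, NDUFAF5, NDUFAF6 and NDUFAF7 were the exceptions, and NDUFAF5 was the member detected in fewer than 50% of the cells of a condition. Some members share sequence with other annotated genes. The canonical transcripts of NDUFB2, NDUFS7, NDUFB9, NDUFB8, NDUFA11, NDUFV2, NDUFA13 and NDUFA7 share over 20% of their exon bases with another annotated gene, and 21 members have named pseudogenes, 12 for NDUFA5 and for NDUFB4 and 6 for NDUFS5. Whether reads were split among them was not tested.

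On the deposited scale the members moved with the total RNA of the cells. A gene was counted as past the limit when its mean E-value differed from control by more than log2 of 1.5. The median total per cell stood at −0.99 (log2, against control) for paclitaxel 16 h, −0.64 for paclitaxel 48 h, −0.76 for celecoxib 2 h, −1.52 for celecoxib 16 h and 0.49 for the combination. Subunit genes and assembly factors were both lower in the 4 single-drug conditions and higher in the combination, where the median over all genes also moved in that direction. The median difference of the 38 subunit genes was −0.61, −0.55, −0.42, −1.58 and 0.75 in that order, that of the 7 factors −0.82, −0.66, −0.65, −1.27 and 0.33, and that of all genes −0.41, −0.26, −0.26, −0.48 and 0.33. The median over all genes moved less than the cell total in each treatment, and 34.9% of all E-values listed were 0. The shares over all genes given below are not matched to the members in expression level.

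After 16 h of celecoxib all 38 subunit genes were lower past the limit, and 6 of the 7 factors, beside 43.9% of all genes. The median cell total, at −1.52, was itself past the limit there. NDUFAF3 was the exception at −0.49. The 2 lowest subunit genes were NDUFS5 (−2.39) and NDUFAB1 (−2.31), and the 2 least changed were NDUFA5 (−0.87) and NDUFA13 (−0.89). No member was higher past the limit, beside 0.383% of all genes. After 16 h of paclitaxel 20 subunit genes and 5 factors were lower past the limit, beside 37.3% of all genes. NDUFS1 (−1.48) and NDUFA9 (−1.02) were the lowest subunit genes, and NDUFB1 (0.01) and NDUFS4 (−0.09) the highest. After 48 h there were 18 subunit genes and 6 factors, beside 26.6%. NDUFAF4 was the lowest member at −1.45, NDUFA8 (−1.10) and NDUFB2 (−1.02) were the lowest subunit genes, and NDUFV1 (−0.03) and NDUFA7 (−0.09) the highest. After 2 h of celecoxib there were 11 subunit genes and 4 factors, beside 25.7%. NDUFB2 and NDUFS1 were the lowest subunit genes (both −0.92), and NDUFB1 (0.52) and NDUFS4 (0.03) the highest. No member was higher past the limit in these 3 conditions, beside 0.0932%, 0.922% and 1.12% of all genes.

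The combination reversed the direction. In those cells 26 subunit genes and 3 factors (NDUFAF1, NDUFAF2 and NDUFAF7) were higher past the limit, beside 30.4% of all genes, and no member was lower, beside 1.76%. NDUFS4 (1.64) and NDUFB5 (1.39) led the subunit genes, and NDUFB2 (0.14) and NDUFB7 (0.22) were lowest. By mean E-value NDUFAF5 (−0.16) and NDUFAF4 (−0.01) were the factors at or below control. The log2 ratios of their linear means were 0.65 and 0.20, above control. Since 1 is added before the log, the E-value scale shrinks the change of a weakly expressed gene in a single cell, but means of E-values over cells, some at 0, can lie farther from control than ratios of linear means. On linear values the median log2 ratio of means was −0.52, −0.46, −0.40, −1.59 and 0.86 for subunit genes and −0.66, −0.56, −0.48, −1.45 and 0.70 for factors, so in the combination the factor median lay at −0.16 from the subunit median on that scale and at −0.42 on the E-value scale.

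**Figure D1:**
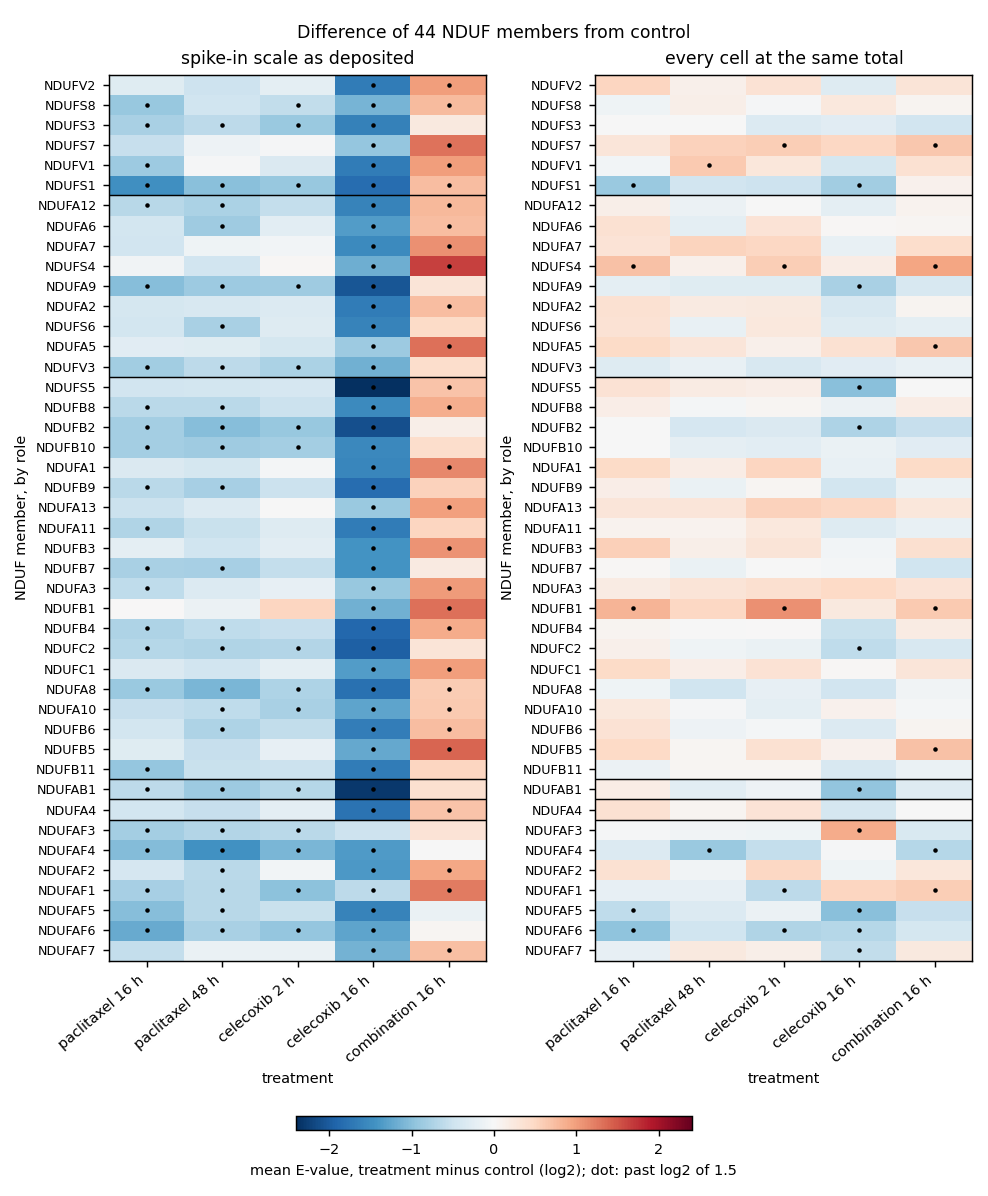
Heatmap of the mean E-value of 44 NDUF members minus control (log2) in the 5 treatments, as deposited (left) and with every cell set to the same total (right), members grouped by role and dots marking differences past log2 of 1.5. The left panel shows blue columns for single drugs, deepest after 16 h of celecoxib where every subunit gene plotted is marked, and the right panel leaves few marks, 9 members lower and NDUFAF3 higher in that condition.

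To see the members apart from total RNA, each cell was rescaled to the same total and E-values were taken again. At the same total the median difference of the subunit genes was 0.19 for paclitaxel 16 h, 0.05 for paclitaxel 48 h, 0.14 for celecoxib 2 h, −0.25 for celecoxib 16 h and 0.06 for the combination. The factors stood at −0.20, −0.20, −0.14, −0.10 and −0.36, and all genes at −0.09, −0.00, −0.03, 0.02 and 0.02. Gene by gene, 6, 6, 5, 3 and 4 of the 7 factors lay below the subunit median, and on linear values 5, 4, 4, 1 and 4 of 7. Celecoxib 16 h was thus the condition in which most factors lay above the subunit median on both scales.

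Few members passed the limit at the same total. For paclitaxel 16 h, 2 subunit genes were higher beside 1.89% of all genes, and 1 subunit gene and 2 factors were lower beside 13.2%. For paclitaxel 48 h, 1 subunit gene was higher beside 4.69%, and 1 factor was lower beside 8.08%. For celecoxib 2 h, 3 subunit genes were higher beside 4.18%, and 2 factors were lower beside 10.9%. For celecoxib 16 h, 1 factor was higher beside 8.87%, and 6 subunit genes and 3 factors were lower beside 10.1%. For the combination, 5 subunit genes and 1 factor were higher beside 7.87%, and 1 factor was lower beside 7.64%. More than 1 subunit gene passed the limit downward in celecoxib 16 h and in no other condition. Values just inside the limit included NDUFB3 (0.57, paclitaxel 16 h), NDUFAF4 (−0.57, celecoxib 2 h), NDUFA13 (0.56, celecoxib 2 h) and NDUFB2 (−0.56, combination).

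The share of each cell's total gave the same contrast without any log scale. The 38 subunit genes together held a median of 2.50% of the control cell total, between 2.14% and 3.58% over cells. The median was 3.11% for paclitaxel 16 h, 2.78% for paclitaxel 48 h, 2.92% for celecoxib 2 h and 2.73% for the combination, and it was above the control median in 54 of 56, 45 of 53, 58 of 63 and 47 of 59 cells. With celecoxib for 16 h it was 2.24%, between 1.52% and 3.27%, and it was below the control median in 51 of 61 cells.

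The 7 factors held a median of 0.114% of the control total, between 0.0687% and 0.175% over cells. The other conditions lay close to it, at 0.118% for paclitaxel 16 h, 0.110% for paclitaxel 48 h, 0.116% for celecoxib 2 h and 0.107% for the combination. In celecoxib 16 h cells the median was 0.159%, and 53 of 61 cells lay above the control median. Subunit RNA was 21.7 times factor RNA in the median control cell and 14.5 times after 16 h of celecoxib, and it was below the control median in 56 of 61 cells. The other ratios were 25.7, 25.2, 23.5 and 24.9. All ranges overlapped between conditions.

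**Figure D2:**
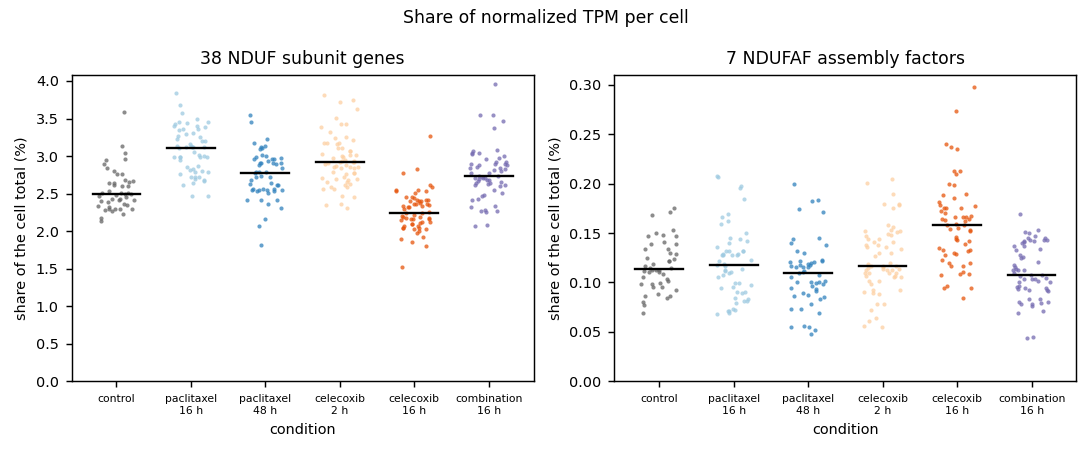
Share of the cell total of normalized TPM (percent) held by the 38 NDUF subunit genes (left) and the 7 assembly factors (right), with 1 point per cell and the line at the median of each condition. After 16 h of celecoxib the subunit median is the lowest at 2.24% and the factor median the highest at 0.159%.

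The core subunits of the matrix arm, the catalytic part of the enzyme, did not move as 1 group. NDUFS1, the largest iron-sulfur subunit, ranged from 0.62 to 5.57 over control cells at the same total with a median E-value of 4.20. The median was 3.66 for paclitaxel 16 h, 3.79 for paclitaxel 48 h, 4.22 for celecoxib 2 h, 3.71 for celecoxib 16 h and 4.76 for the combination. The means differed from control by −0.89, −0.47, −0.49, −0.84 and 0.10. Below the lowest control cell lay 9 of 56 paclitaxel 16 h, 2 of 53 paclitaxel 48 h, 7 of 63 celecoxib 2 h, 11 of 61 celecoxib 16 h and 4 of 59 combination cells. On linear values the log2 ratios at the same total were −0.44 and −0.35 for paclitaxel and celecoxib at 16 h, inside the limit.

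NDUFS7, the subunit that holds the last iron-sulfur cluster before ubiquinone, was higher in each treatment at the same total. Its median E-value was 6.26 in control cells, from 0.00 to 7.36, and 6.43, 6.70, 6.69, 6.55 and 6.69 in the treatments in the order above. The mean differences were 0.29, 0.55, 0.59, 0.50 and 0.65, and the celecoxib 2 h and combination values passed the limit. In 1 control cell it was listed at 0, and the differences of the medians over cells were 0.43 and 0.42 in those 2 conditions. Its canonical transcript shares 37.3% of its bases with an annotated gene on the opposite strand, and the part of that gene in the value was not tested.

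NDUFV1 carries the flavin that takes electrons from NADH. It was higher after 48 h of paclitaxel, with a median E-value of 5.70 against 5.20 in control cells and a mean difference of 0.63. The log2 ratio of linear means was 0.55, inside the limit, and the lowest control value was 0. Cells of sequencing index blocks 2 and 4 of that condition gave 0.28 and 0.88, on either side of the limit. Block 4 is the block that also holds the control cells. The other treatments gave −0.07 for paclitaxel 16 h, 0.26 for celecoxib 2 h, −0.42 for celecoxib 16 h and 0.37 for the combination. NDUFV2, its partner in the NADH module, stood at 0.52, 0.13, 0.34, −0.30 and 0.30 in the 5 treatments. NDUFS3 stood at −0.01, −0.01, −0.33, −0.26 and −0.45, and NDUFS8 at −0.10, 0.15, −0.03, 0.26 and 0.06. None of the differences of NDUFV2, NDUFS3 and NDUFS8 passed the limit.

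Among the accessory matrix arm subunits, NDUFS4, which joins late and stabilizes the NADH module, was the highest member in the combination. Its E-value at the same total was between 3.48 and 7.09 over control cells with a median of 5.81, and between 5.11 and 7.89 in the combination with a median of 6.64. The mean difference was 0.95, and 54 of 59 cells lay above the control median. The 2 index blocks of the combination, 1 and 3, gave 0.97 and 0.92. Paclitaxel 16 h (0.71, 48 of 56 cells above the control median) and celecoxib 2 h (0.60, 49 of 63) also passed the limit. Paclitaxel 48 h (0.12) and celecoxib 16 h (0.19) did not.

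NDUFA9, which borders the ubiquinone site, was lower after 16 h of celecoxib. The median E-value was 5.73 in control cells and 5.01 in treated cells, the mean difference was −0.78, and the log2 ratio of linear means was −0.51. NDUFA5 was higher in the combination, with a median of 5.02 against 4.36 and a mean difference of 0.65. Its blocks gave 0.82 and 0.42, on either side of the limit, as did those of NDUFS7 in the combination (0.51 and 0.83). The remaining accessory subunits of this arm stayed inside the limit at the same total in each treatment. NDUFA7 came nearest, at 0.53 after 48 h of paclitaxel.

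The membrane arm held the most abundant and the most strongly lowered subunit gene. NDUFS5, a small subunit on the outer face of the arm, ranged over control cells from 7.72 to 9.29 with a median E-value of 8.54 at the same total. The range after 16 h of celecoxib was 5.73 to 8.52 with a median of 7.58. All 61 treated cells were under the control median and 36 below the lowest control cell, and the mean difference was −1.0. The other conditions had medians of 8.89, 8.87, 8.76 and 8.59, in the order paclitaxel 16 h, paclitaxel 48 h, celecoxib 2 h and the combination, with mean differences of 0.35, 0.19, 0.16 and −0.01. NDUFS5 made up 9.68% of the subunit total in the median control cell and 5.81% in the median celecoxib 16 h cell. Without it, the other 37 subunit genes held 2.24% of the control total and 2.12% after 16 h of celecoxib, with 43 of 61 cells under the control median.

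NDUFAB1 followed NDUFS5 in that condition. As the acyl carrier protein it also serves fatty acid and lipoic acid synthesis in mitochondria. Its E-value was between 6.53 and 8.15 in control cells with a median of 7.58, and between 5.38 and 8.00 after 16 h of celecoxib with a median of 6.59. The mean difference was −0.94, and 29 of 61 cells lay below the lowest control cell. Paclitaxel 16 h gave 0.17, paclitaxel 48 h −0.25, celecoxib 2 h −0.11 and the combination −0.31.

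NDUFB2 and NDUFC2, also of the membrane arm, passed the limit downward after 16 h of celecoxib. NDUFB2 had a median E-value of 7.55 in control and 6.84 in treated cells, and 57 of 61 cells were under the control median. NDUFC2 had medians of 6.59 and 6.00, with 47 of 61 below. The mean differences were −0.74 and −0.61. NDUFB2 was also the lowest subunit gene in the combination, at −0.56.

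NDUFB1 went the other way. It is among the smallest membrane arm subunits, and its E-value at the same total was between 5.54 and 7.81 over control cells with a median of 6.60. After 2 h of celecoxib the range was 6.69 to 8.76 with a median of 7.77, all 63 cells lay above the control median and 29 above the highest control cell. The mean difference was 1.10, the highest of any member in any treatment at the same total. Paclitaxel 16 h gave 0.82, with 56 of 56 cells above the control median, and the combination 0.62, with 55 of 59. Paclitaxel 48 h gave 0.49 and celecoxib 16 h 0.23. NDUFB5 passed the limit in the combination at 0.70, where 49 of 59 cells lay above the control median. NDUFA13, also known as GRIM-19, gave 0.56 after 2 h and 0.50 after 16 h of celecoxib, inside the limit.

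NDUFA4, the complex IV subunit, was 0.37, 0.06, 0.34, −0.43 and −0.01 at the same total in the order paclitaxel 16 h, paclitaxel 48 h, celecoxib 2 h, celecoxib 16 h and the combination. None passed the limit. Leaving it out, the median of the 37 complex I subunits was −0.23 after 16 h of celecoxib. By arm the medians in that condition were −0.25 for the matrix arm and −0.17 for the membrane arm, and in the combination 0.10 and 0.02.

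**Figure D3:**
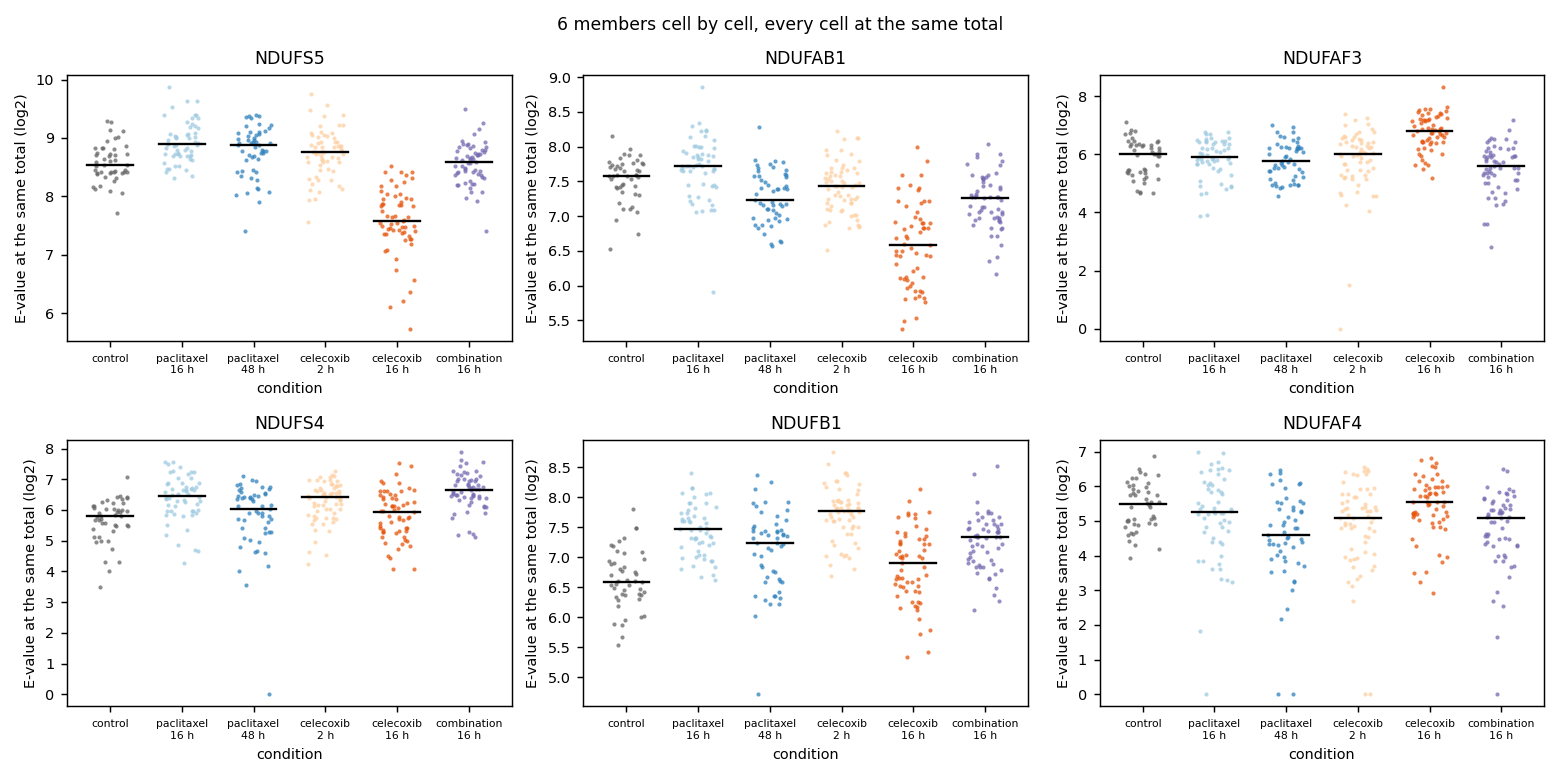
E-values of 6 members with every cell at the same total (log2), 1 point per cell, lines at medians, in the 6 conditions. After 16 h of celecoxib the medians of NDUFS5 (7.58) and NDUFAB1 (6.59) are the lowest and that of NDUFAF3 (6.79) the highest of the 6 conditions, NDUFB1 peaks after 2 h of celecoxib (7.77), and NDUFS4 peaks in the combination (6.64).

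Of the assembly factors, NDUFAF3 stood apart after 16 h of celecoxib. It works with NDUFAF4 on an early module that will join the matrix arm to the membrane. At the same total its E-value was between 4.66 and 7.12 over control cells with a median of 6.02, and between 5.17 and 8.32 after 16 h of celecoxib with a median of 6.79. The mean difference was 0.89, and the log2 ratio of linear means was also 0.89. Of 61 cells, 53 lay above the control median and 21 above the highest control cell. NDUFAF3 and NDUFAF1 (0.51) lay above each of the 38 subunit genes in that condition. The other differences were −0.03 for paclitaxel 16 h, −0.08 for paclitaxel 48 h, −0.11 for celecoxib 2 h and −0.36 for the combination.

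NDUFAF3 carried a large part of the factor total. It made up 34.8% of the factor total in the median control cell and 47.9% after 16 h of celecoxib. The 6 factors without it held 0.0704% of the control total and 0.0789% after 16 h of celecoxib, where 44 of 61 cells lay above the control median. On the deposited scale NDUFAF3 was not higher than control in that condition. Its median E-value was 5.42 against 5.84, and no cell exceeded the highest control cell. Its deposited difference of −0.49 stood above that of the cell total, −1.52, and this gap is what the same-total scale shows.

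NDUFAF4, its partner, was lower after 48 h of paclitaxel and in the combination. Over control cells its E-value at the same total was between 3.94 and 6.87 with a median of 5.48. The median was 4.58 after 48 h of paclitaxel, with 13 of 53 cells below the lowest control cell, and 5.10 in the combination, with 10 of 59. The mean differences were −0.90 and −0.69, and the log2 ratios of linear means were −0.62 and −0.54. Index blocks 2 and 4 of paclitaxel 48 h gave −0.47 and −1.20, on either side of the limit, and block 4 also holds the control cells. Paclitaxel 16 h gave −0.32, celecoxib 2 h −0.57 and celecoxib 16 h −0.03, so NDUFAF3 exceeded NDUFAF4 in its difference from control by 0.29, 0.81, 0.46, 0.92 and 0.33 in the 5 treatments, and by 0.03, 0.53, 0.40, 0.86 and 0.25 on linear values.

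NDUFAF1, a factor of the membrane arm intermediate, had a median E-value of 4.03 in control cells, where it was detected in all 46. After 2 h of celecoxib the median was 3.85 and detection 81.0% (95% exact interval 69.1% to 89.8%), and the mean difference of −0.62 came with a log2 ratio of linear means of −0.03. The RNA was seen in 51 of the 63 cells. After 16 h of celecoxib and in the combination the medians were 4.75 and 4.61 and the mean differences 0.51 and 0.59, with log2 ratios of 0.84 and 0.71. The combination's blocks gave 0.39 and 0.87, on either side of the limit.

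NDUFAF5, NDUFAF6 and NDUFAF7 are the 3 weakest factors, and each was listed at 0 in a larger share of treated than of control cells in the 5 treatments. NDUFAF5 adds a hydroxyl group to an arginine of NDUFS7. It was detected in 84.8% of control cells (71.1% to 93.7%) and 45.9% of celecoxib 16 h cells (33.1% to 59.2%), with 60.7%, 67.9%, 71.4% and 62.7% in paclitaxel 16 h, paclitaxel 48 h, celecoxib 2 h and the combination. These intervals cover counting error only. The median genes detected per cell were 6630 in control and 6329 after 16 h of celecoxib. The median cell total after 16 h of celecoxib was −1.52 (log2, against control), and rescaling to the same total leaves a value of 0 unchanged. Whether the lower total bears on detection was not tested. The mean difference at the same total after 16 h of celecoxib was −1.0 and the log2 ratio of linear means −0.18. The median treated cell was at 0.00, while 6 of 61 cells exceeded the highest control cell.

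NDUFAF6 was lower past the limit after 16 h of paclitaxel (−0.97), 2 h of celecoxib (−0.73) and 16 h of celecoxib (−0.69). Its detection was 78.3% in control cells and 55.4%, 52.4% and 54.1% in those conditions, and the log2 ratios of linear means were −0.75, −0.28 and −0.41. NDUFAF7, a methyltransferase, was lower past the limit after 16 h of celecoxib alone (−0.59, seen in 36 of 61 cells against 37 of 46), where the log2 ratio was −0.08. NDUFAF2, a paralog of the subunit NDUFA12 that holds its place during assembly, stayed inside the limit throughout, from −0.10 to 0.50. On linear values at the same total no factor was lower past the limit after 16 h of celecoxib and 2 were higher (NDUFAF3 and NDUFAF1).

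**Figure D4:**
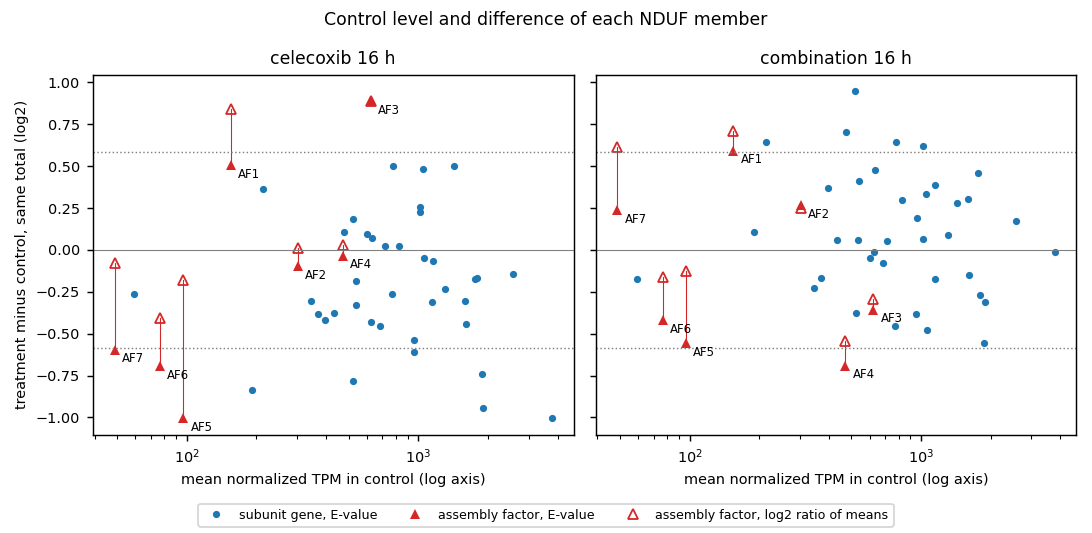
Difference from control at the same total (log2) against the mean normalized TPM in control cells (log axis) for each NDUF member, after 16 h of celecoxib (left) and in the combination (right). Filled symbols are E-value differences, open triangles the log2 ratios of linear means of the assembly factors joined to their E-value by a line, and dotted lines the limit. After 16 h of celecoxib the line is longest for NDUFAF5 (−1.0 to −0.18) and NDUFAF7 (−0.59 to −0.08). It is shorter for NDUFAF1 (0.51 to 0.84) and NDUFAF6 (−0.69 to −0.41), and for NDUFAF3 both values are 0.89.

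NDUFAF5 and NDUFAF2 were also set beside a related subunit. In its difference from control at the same total NDUFAF5 stood below its substrate NDUFS7 in each treatment, with gaps of −0.90, −0.88, −0.72, −1.51 and −1.20 on the E-value scale. On linear values the gaps were −0.26, −0.27, −0.17, −0.60 and −0.65. NDUFAF2 differed from NDUFA12 by 0.23, 0.05, 0.51, 0.13 and 0.18 on the E-value scale. These values share the control cells, and the first pair sets a weakly expressed factor against an abundant subunit.

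The combination was also compared with each single drug at 16 h. All 45 members were higher past the limit in the combination than with either drug as deposited, beside 62.5% of all genes against paclitaxel and 66% against celecoxib. The median cell totals differed widely too. They were 0.49 (log2, against control) in the combination, −0.99 with paclitaxel and −1.52 with celecoxib. At the same total, 1 subunit gene (NDUFS1, 1.00) and 1 factor (NDUFAF1, 0.78) were higher than with paclitaxel, beside 13% of all genes, and none was lower, beside 2.11%. Against celecoxib, 10 subunit genes and NDUFAF7 (0.83) were higher, beside 6.94%, led by NDUFS5 (0.99) and NDUFS1 (0.94), and 2 factors, NDUFAF3 (−1.25) and NDUFAF4 (−0.66), were lower, beside 5.85%. NDUFS5 and NDUFAF3 thus differed in opposite directions between the combination and celecoxib alone.

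Some cells of the combination shared a sequencing index block with a single drug. In block 3, 25 combination cells against 61 celecoxib cells gave 0.98 for NDUFS5, 0.62 for NDUFAB1 and −1.23 for NDUFAF3 at the same total. The subunit median was 0.32 there, with 9 subunit genes higher past the limit. In block 1, 34 combination cells against 56 paclitaxel cells gave −0.12 for the subunit median, 0.88 for NDUFS1 and 0.58 for NDUFAF1. Within the block NDUFAF1 lay just inside the limit, and the other genes named kept their side of it. Control cells were in block 4 alone, which they shared with 31 paclitaxel 48 h cells.

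The other respiratory complexes had medians near those of the complex I subunits. Over 40 nuclear genes of complexes II to V the median difference at the same total was 0.11, −0.01, 0.01, −0.26 and 0.03 in the 5 treatments, and 13 were lower past the limit after 16 h of celecoxib, beside 6 of the 38 NDUF subunit genes and 10.1% of all genes. By complex the medians in that condition were −0.30 for complex II (4 genes), −0.25 for complex III (10 genes), −0.20 for complex IV (11 genes) and −0.27 for complex V (15 genes). The median of the 37 complex I subunits, −0.23, lay within that range. Over 12 complex I assembly factors without an NDUF symbol the median was −0.13, −0.04, −0.38, −0.06 and −0.12. ECSIT, which acts with NDUFAF1, was the lowest of them in each treatment but paclitaxel 16 h, at −0.76, −1.41, −0.88 and −1.08, and ATP5SL (DMAC2) was lowest in paclitaxel 16 h at −1.01. C17orf89 (NDUFAF8), which joins NDUFAF5, stood at −0.43, −0.36, −1.01, 0.01 and −0.95.

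Within each condition the summed subunit RNA of a cell followed the rest of its RNA closely, with Pearson r between 0.92 and 0.97 and Spearman rho between 0.91 and 0.96 on log2 values over 46 to 63 cells. Summed factor RNA followed it with r between 0.73 and 0.89 and rho between 0.71 and 0.85. All values of a cell share its library and its spike-in scaling, so these are descriptions. The shares of the total held by subunits and by factors were weakly related within a condition, with r between −0.32 and 0.20.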

How the data were processed

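The authors trimmed reads with Trim Galore, quantified them with RSEM 1.3.0 on Bowtie2 against hg38 transcripts (GENCODE 28) and 3 spike-in RNAs, and deposited log2 E-values, E = log2(N/10 + 1), where N is TPM scaled to the most abundant spike-in. Cells with poorly detected housekeeping genes were left out by the authors, so 338 of the 372 cells in the labels were used. Cells were grouped by their labels.

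N was recovered from E. For the same-total scale, N of each cell was rescaled to the median total of the control cells and E-values were taken again. The limit of 1.5-fold follows the study. With 1 sample per condition no test was made, and SDs or ranges are over cells. Shares of cells carry exact Clopper-Pearson 95% intervals. Reads per cell are unknown, so depth sets no stated limit. The members and lists were chosen with earlier results of these data known. Named genes were all NDUFAF factors, the 7 core subunits, NDUFA4, NDUFAB1, the 2 highest and 2 lowest subunits per treatment and scale, and members past the limit at the same total. 1 member was kept in all counts and medians and is not reported here by its own values. Annotation came from GENCODE 44 (45 of 45 identifiers matched), promoters from RefSeq. The scripts were tested on simulated data. Python 3.11.15, pandas 2.3.3, numpy 2.4.6, scipy 1.17.1 and matplotlib 3.10.9 were used. Alternatives were linear ratios, a pseudocount of 1, medians over cells, single index blocks, other detection limits, other totals and a left-out well.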

Additional observations from a re-analysis of the deposited data

How the results depend on the processing

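The medians of subunits and factors and the members past the limit were recomputed under the other settings. Of 372 such values 331 were counted as kept, which allowed a shift within a tolerance, and 41 as moved. No difference of a named gene past the limit changed sign, but small medians could. With ratios of linear means at the same total, the factor median went from −0.20 to 0.07 in paclitaxel 48 h. It went from −0.14 to 0.06 in celecoxib 2 h and from −0.10 to 0.01 in celecoxib 16 h. It stayed below 0 in paclitaxel 16 h (−0.20 to −0.03) and the combination (−0.36 to −0.13). The moved values were mostly small counts at the same total, listed here as subunits or factors past the limit. With ratios of linear means, paclitaxel 16 h gave 4 subunits up, 0 down and 1 factor down, paclitaxel 48 h 0 subunits and 1 factor up (and 3 factors down as deposited), celecoxib 2 h 0 factors down, celecoxib 16 h 3 subunits down with 2 factors up and 0 down, and the combination 2 factors up and 0 down (5 up as deposited). With medians over cells, paclitaxel 16 h gave 5 subunits up and 0 down, paclitaxel 48 h 2 subunits up and 2 factors down, celecoxib 2 h 1 factor down, celecoxib 16 h 1 subunit and 2 factors up, and the combination 0 factors up. A pseudocount of 1 normalized TPM moved the factor median of paclitaxel 16 h as deposited to −1.17, and gave 2 subunits up and 3 factors down in paclitaxel 48 h, 1 subunit down in celecoxib 2 h, and 0 factors up and 3 down in the combination. Index block 2 of paclitaxel 48 h alone gave 28 subunits down as deposited, and at the same total 1 subunit down, 1 factor up and 0 factors down. Block 4 alone gave 2 subunits up and 2 factors down. In the combination blocks 1 and 3 each gave 1 subunit down, block 1 gave 0 factors up and block 3 gave 3 factors down. Setting the total to the median of all cells left 1 factor down in paclitaxel 16 h, celecoxib 2 h and celecoxib 16 h and 0 factors up in the combination. The cause of these shifts was not tested. The left-out well and a total without the 50 most abundant genes moved none of the values. The other detection limits kept every member, so they could not move a value, and their values are among the 331. At the same total 15 of 29 named differences past the limit stayed past it with linear ratios and 21 with medians over cells. No replicates exist to set an error between conditions, and weak factors listed at 0 in many cells are the least certain values.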
